A study of Mus musculus with 16 samples.

Results

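The epithelial to mesenchymal transition regulators considered here are 10 genes, 6 of which, Snai1, Snai2, Zeb1, Zeb2, Twist1 and Twist2, encode transcription factors that drive the transition. The other 4, Esrp1, Esrp2, Grhl2 and Ovol1, encode splicing and transcription factors that hold cells in the epithelial state. They were chosen by name, and all 10 have a row among the 25745 genes of the count table. In these mouse mammary cancer cells 4 of them were expressed above the low-count filter of the test (Snai1, Zeb1, Zeb2 and Twist1). Snai2, Twist2, Esrp1, Esrp2, Grhl2 and Ovol1 were not, and their counts are given one by one. Among the 4 expressed regulators Twist1 had the largest difference between the vectors. Its mean level was 2.96-fold higher in untreated empty-vector cells than in cells with the CLIC4 lentivirus when library 11 was left out, 5.35-fold with that library, and 2.81-fold higher in cells given H2O2.

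RNA-seq libraries were made from 6DT1, a mouse mammary cancer cell line with the strain label FVB/N1, transduced either with an empty vector or with a lentivirus that carries CLIC4 (a protein of the chloride intracellular channel family). Cells of each kind were untreated or received H2O2 at 1 µM for 24 h, which gives 4 groups of 4 libraries. The labels do not give the promoter of the vector, whether a line is 1 clone, or whether the libraries of a group are separate cultures, so p-values measure the spread between these libraries, which may be technical. The labels conflict on genotype. The description field has CLIC4-Knockout for the empty-vector libraries and wild type for the lentivirus ones, whereas the series text names the vectors alone. Total counts ran from 47.1 to 61.9 M. Clic4 went with the vector labels: untreated, it was at 222 to 244 CPM (counts scaled to library size, with TMM factors, the trimmed mean of M-values) with the lentivirus and 41.2 to 138 with the empty vector (log2 change -1.79, edgeR adjusted p = 2.88e-04; -2.43 without library 11). The 138 CPM belongs to library 11, an untreated empty-vector library that stood apart: its correlation with its group reached 0.928, while all other pairs within groups were at 0.997 or above. Its TMM scaling factor was 0.721, and leaving it out took the biological coefficient of variation from 23.1% to 5.28%. The vector comparisons of the regulators and the counts of calls are therefore given with and without it.

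In the transition, epithelial cells lose the cadherin and tight junctions that tie them to their neighbours and take up a motile, vimentin-rich state. SNAI, ZEB and TWIST proteins are the transcription factors best known for setting off this change, and SNAI and ZEB zinc fingers bind E-boxes in the promoters of junction genes and repress them. GRHL2 activates those same junction genes, OVOL1 is a zinc-finger repressor that opposes the mesenchymal programme, and ESRP1 and ESRP2 bind RNA and keep epithelial exons in genes such as Fgfr2 and Cd44. In mammary tumours the programme is studied for its links to invasion and spread.

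Per length, Zeb1 was the most abundant of the 10 in every group except where library 11 entered the mean. In untreated lentivirus cells the authors' FPKM values were 14.1 ± 0.918 for Zeb1, 8.98 ± 0.646 for Zeb2, 5.01 ± 0.296 for Snai1 and 4.39 ± 0.229 for Twist1 (SD, n = 4). In untreated empty-vector cells without library 11 the order changed: Zeb1 stood at 19.1 ± 0.814, Twist1 at 13.4 ± 0.556, Zeb2 at 9.50 ± 0.288 and Snai1 at 6.38 ± 0.703 FPKM (SD, n = 3). Twist1 thus went from the lowest of the 4 to the second, above Zeb2, in a scale that allows genes to be compared. Cells given H2O2 had the same order as their untreated counterparts, with Twist1 at 4.68 ± 0.361 FPKM in lentivirus and 13.4 ± 0.799 in empty-vector cells (SD, n = 4). The other 6 genes reached at most 0.22 FPKM in any library, the highest value belonging to Grhl2.

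**Figure D1:**
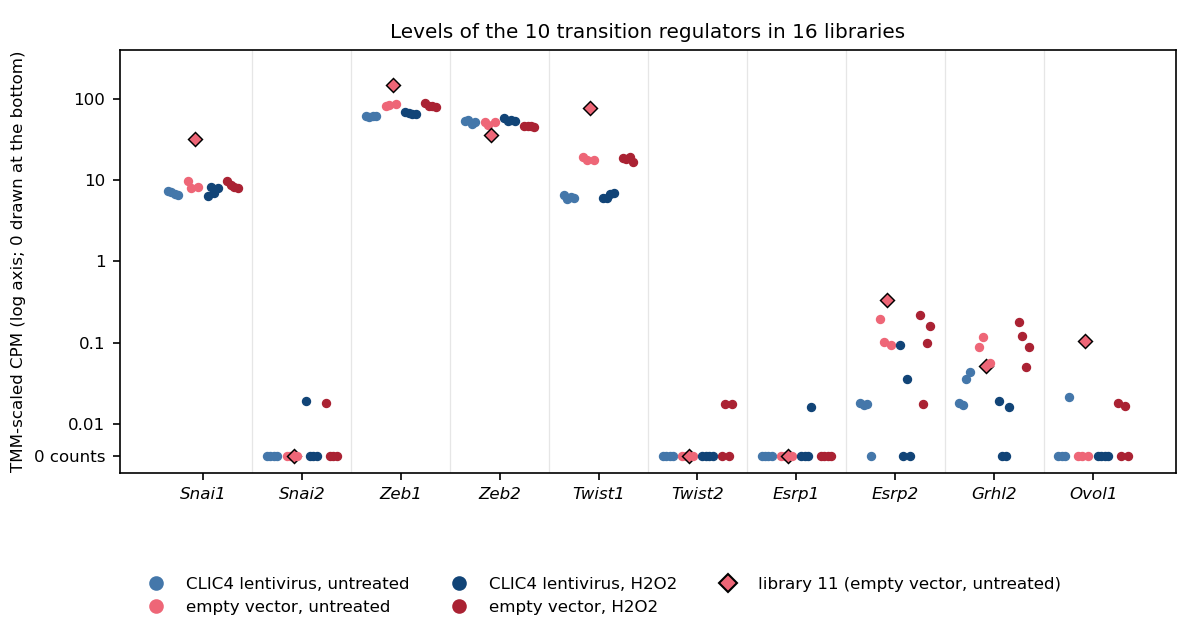
TMM-scaled CPM on a log axis for the 10 regulators, 1 point per library and groups by colour, with libraries at 0 counts drawn at the bottom and library 11 as a diamond. Snai1, Zeb1, Zeb2 and Twist1 lie between 5.86 and 149 CPM, and the other 6 genes do not pass 0.337 CPM in any library.

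Twist1 (chromosome 12, 33957671 to 33959829, plus strand, mm10) encodes a basic helix-loop-helix factor that drives invasion and metastasis in mammary tumour cells. In untreated lentivirus cells its levels were 6.53, 5.86, 6.19 and 6.12 CPM in libraries 1 to 4. In untreated empty-vector cells they were 19.2, 17.8, 77.3 and 17.9 CPM in libraries 9 to 12. The 2 sets did not overlap, and library 11 was the highest of all. Empty vector minus lentivirus gave a log2 change of 2.42 ± 0.399 (SE; edgeR adjusted p = 1.72e-04), and of 1.57 ± 0.0664 without library 11 (adjusted p = 4.42e-14). After H2O2 the levels were 6.12, 6.02, 6.86 and 7.00 CPM in lentivirus libraries 5 to 8, against 18.9, 18.2, 19.3 and 16.8 CPM in empty-vector libraries 13 to 16. Again every empty-vector library was above every lentivirus library. In treated cells Twist1 differed by 1.49 ± 0.388 on the log2 scale (SE; edgeR adjusted p = 0.00618), and by the same 1.49 ± 0.0620 without library 11 (adjusted p = 2.83e-14). From the lowest to the highest mean the groups ran untreated lentivirus (6.18 ± 0.277), treated lentivirus (6.50 ± 0.501), treated empty vector (18.3 ± 1.12) and untreated empty vector (33.0 ± 29.5 CPM, SD, n = 4). Without library 11 the last of these was 18.3 ± 0.739 CPM (n = 3), so that neighbours in this order differed beyond their spread between the vectors and not within one.

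The promoters of Twist1 and Snai1, which were both higher in untreated empty-vector cells, and of Epcam, an epithelial adhesion gene that was detected at more than traces in library 11 alone, are shown for the E-box that SNAI and ZEB proteins bind. Each is a window of 300 bases around the start of the gene, most of it before the start, is taken from RefSeq (GRCm38.p6) and reads 5′ to 3′ on the strand of the gene. Capitals mark the motif CACCTG or its reverse complement CAGGTG, so both strands were searched and no match overlapped another.
Twist1 (chr12:33957421-33957720, plus strand): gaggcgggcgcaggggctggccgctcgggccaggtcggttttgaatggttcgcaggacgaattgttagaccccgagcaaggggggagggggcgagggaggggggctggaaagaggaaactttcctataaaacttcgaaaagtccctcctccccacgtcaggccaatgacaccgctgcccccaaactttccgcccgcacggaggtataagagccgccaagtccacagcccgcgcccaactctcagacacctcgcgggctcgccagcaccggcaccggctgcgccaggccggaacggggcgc
Snai1 (chr2:167537945-167538244, plus strand): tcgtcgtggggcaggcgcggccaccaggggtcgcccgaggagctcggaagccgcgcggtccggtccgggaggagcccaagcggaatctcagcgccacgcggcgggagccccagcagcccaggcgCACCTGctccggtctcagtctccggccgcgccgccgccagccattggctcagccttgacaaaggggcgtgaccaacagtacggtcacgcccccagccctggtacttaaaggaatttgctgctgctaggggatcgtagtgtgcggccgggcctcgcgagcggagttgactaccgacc
Epcam (chr17:87635729-87636028, plus strand): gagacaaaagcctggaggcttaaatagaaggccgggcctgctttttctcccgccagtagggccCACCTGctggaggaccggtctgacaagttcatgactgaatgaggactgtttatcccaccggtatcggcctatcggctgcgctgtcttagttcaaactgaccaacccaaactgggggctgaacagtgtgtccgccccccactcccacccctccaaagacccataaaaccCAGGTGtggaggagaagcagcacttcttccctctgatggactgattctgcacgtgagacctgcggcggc
Snai1 held 1 match, with its first base at -126, Epcam 2, at -187 and -19, and Twist1 none; positions count from the start of the gene, with negative numbers before it. Among the other members and targets whose windows were examined one by one, Krt8 and Krt18 held 1 each, and Twist2, Cgn, Vim and the 4 windows of Zeb2 held none. This is not a full account of the members and targets. Windows of the remaining members, Zeb1 among them, and of Cdh1, Cdh2 and Fn1 are not reported here, so nothing is said of the motif in them. Of all 32851 promoter windows of this length 20.2% held the motif, and of 27025 genes 22.6% did so in any window, so a match is common and marks no site of binding.

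Snai1 (chromosome 2, 167538195 to 167542814, plus strand, mm10) encodes Snail, a short-lived zinc-finger repressor of E-cadherin. Untreated lentivirus cells had 7.36, 7.27, 6.77 and 6.68 CPM in libraries 1 to 4, and untreated empty-vector cells 9.77, 7.98, 32.3 and 8.33 CPM in libraries 9 to 12. The sets did not overlap, yet outside library 11 the gap between them was narrow. On the log2 scale Snai1 was higher by 1.05 ± 0.356 (SE; edgeR adjusted p = 0.0231), and by 0.31 ± 0.0965 without library 11 (adjusted p = 0.00739), so most of the size came with library 11. The call also ended when library 3 or library 4 was left out (edgeR adjusted p = 0.0511 and 0.0521; log2 change 1.03 in both). After H2O2, Snai1 stood at 6.32, 8.19, 6.94 and 8.07 CPM in libraries 5 to 8 and at 9.91, 8.77, 8.30 and 7.96 CPM in libraries 13 to 16. These overlap. The log2 change of 0.24 was not called with 16 libraries (standard error 0.353, edgeR adjusted p = 0.629) and was called without library 11 (standard error 0.0888, adjusted p = 0.0200). Treatment group means of 7.02 ± 0.344 and 7.38 ± 0.899 CPM with the lentivirus, and 8.73 ± 0.848 CPM (SD, n = 4) with the empty vector after H2O2, lay close to 8.69 ± 0.950 CPM in the 3 remaining untreated empty-vector libraries.

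**Figure D2:**
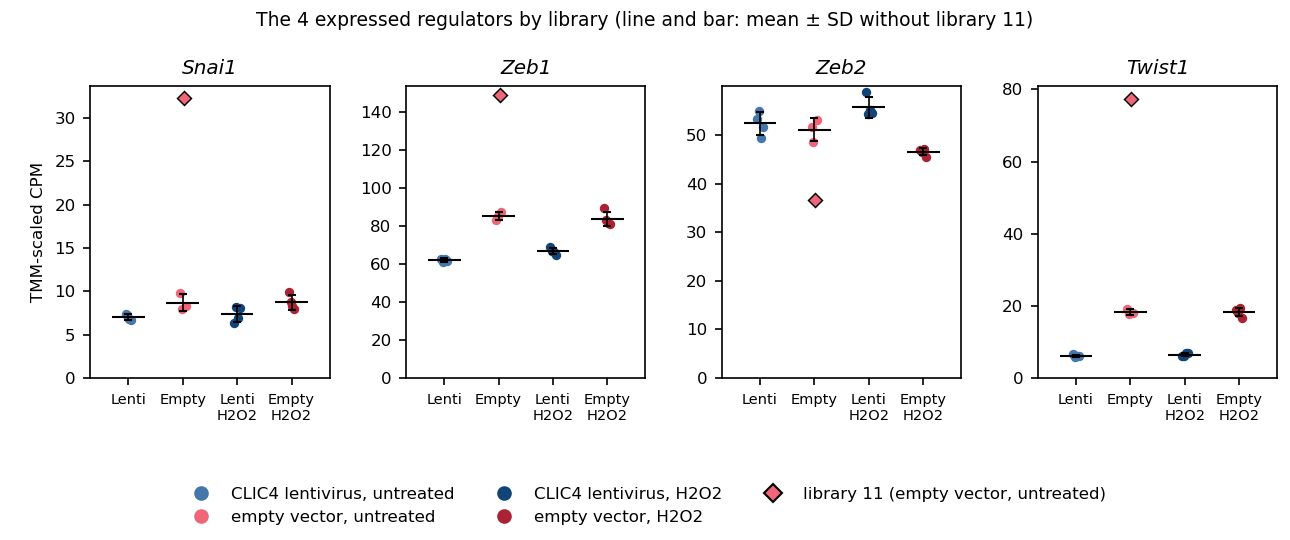
TMM-scaled CPM (axis from 0) of Snai1, Zeb1, Zeb2 and Twist1 in each library by group; the lines and bars are the mean and SD without library 11, which is the diamond. Twist1 lies at 5.86 to 7.00 CPM in the lentivirus libraries and at 16.8 CPM or above with the empty vector, and library 11 is high for Snai1, Zeb1 and Twist1 and low for Zeb2.

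Zeb1 (chromosome 18, 5591860 to 5775467, plus strand, mm10) encodes a zinc-finger and homeodomain repressor of epithelial genes that is held in mutual repression with the miR-200 family. Its levels in untreated lentivirus cells were 62.6, 60.9, 62.8 and 61.6 CPM, and in untreated empty-vector cells 83.3, 85.2, 149 and 87.5 CPM in libraries 9 to 12. All empty-vector libraries were above all lentivirus libraries. Zeb1 was higher by 0.71 ± 0.145 on the log2 scale (SE; edgeR adjusted p = 9.90e-04), and by 0.46 ± 0.0352 without library 11 (adjusted p = 3.80e-10). After H2O2 the levels were 68.9, 66.9, 66.3 and 64.9 CPM with the lentivirus and 89.2, 83.1, 81.4 and 81.0 CPM with the empty vector, again without overlap. The log2 change of 0.33 missed the threshold with 16 libraries (standard error 0.144, edgeR adjusted p = 0.0854) and passed it without library 11 (standard error 0.0327, adjusted p = 2.12e-08). Group means ran from 62.0 ± 0.882 CPM in untreated and 66.7 ± 1.68 in treated lentivirus cells to 83.7 ± 3.78 in treated empty-vector cells (SD, n = 4) and 85.4 ± 2.10 in the 3 untreated empty-vector libraries other than 11. The height of Zeb1 in library 11 depends on the scale. Before TMM scaling it was at 107 CPM against 86.3, 87.9 and 90.7 in libraries 9, 10 and 12, and in FPKM library 11 held 19.7, within the 18.5 to 20.0 of these 3.

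Zeb2 (chromosome 2, 44983632 to 45117395, minus strand, mm10) encodes the close relative of ZEB1 that also represses E-cadherin. It was not called higher with the empty vector in either comparison. In FPKM without library 11, as given above, its untreated mean was higher with the empty vector (9.50 ± 0.288, n = 3, against 8.98 ± 0.646, n = 4; SD), and the libraries overlapped. Untreated, it was at 53.4, 55.0, 49.4 and 51.7 CPM with the lentivirus and at 51.7, 48.5, 36.6 and 53.0 CPM in libraries 9 to 12. These overlap, and the log2 change of -0.14 was not called (standard error 0.0931, edgeR adjusted p = 0.209; -0.04, adjusted p = 0.450, without library 11). After H2O2 it was at 58.9, 54.2, 55.1 and 54.5 CPM with the lentivirus and at 47.0, 46.5, 47.2 and 45.5 CPM with the empty vector, where every library was lower. It fell by 0.26 on the log2 scale (standard error 0.0931, edgeR adjusted p = 0.0373), and by the same 0.26 without library 11 (adjusted p = 5.49e-06). With 16 libraries the call ended when any 1 of libraries 1, 4, 5, 6, 7, 8, 13, 14, 15 or 16 was left out (edgeR adjusted p from 0.0506 to 0.112), and limma on log2(FPKM + 1) gave a log2 change of -0.08 (adjusted p = 0.729). By length-scaled values the groups overlapped, at 9.58 ± 0.450 FPKM with the lentivirus and 9.04 ± 0.389 with the empty vector (SD, n = 4).

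Zeb2 lies opposite the antisense gene Zeb2os, which was itself lower with the empty vector. Zeb2os was at 3.77 to 4.80 CPM in the untreated lentivirus libraries and 0.389 to 1.57 CPM in the untreated empty-vector ones (log2 change -1.93, edgeR adjusted p = 4.28e-05; -1.66, adjusted p = 3.67e-10, without library 11). In treated cells the log2 change was -1.64 (edgeR adjusted p = 1.74e-04), with the same -1.64 without library 11. The strand setting of the counting is not given in the sources used here, so reads of Zeb2 and Zeb2os cannot be told apart where the genes overlap. Zeb2os had 2391 counts over all libraries and Zeb2 44884. Zeb1 likewise overlaps Gm10125, a transcript on the other strand with 75 counts in all.

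Of the 4 tested regulators, 3 were thus higher with the empty vector in untreated cells and none lower, beside 29.0% higher and 24.3% lower calls among the 14445 tested genes. Leaving library 11 out gave the same 3 and 0, beside 37.0% and 37.3% among 14602 tested genes. In treated cells 1 was higher (Twist1) and 1 lower (Zeb2), against 22.1% higher and 20.0% lower of all genes, and without library 11 3 were higher and 1 lower, against 36.6% and 37.2%. Calls in one direction or the other were thus common throughout the table, and with 4 genes these counts describe the genes named and no more. The median log2 change of the 4 was 0.88 untreated (0.39 without library 11) and 0.28 treated (0.28 without it), and over all tested genes it was 0.03 and -0.02 untreated and -0.01 treated in both fits. In bulk RNA, fewer cells that express a gene and less of its RNA per cell cannot be told apart.

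**Figure D3:**
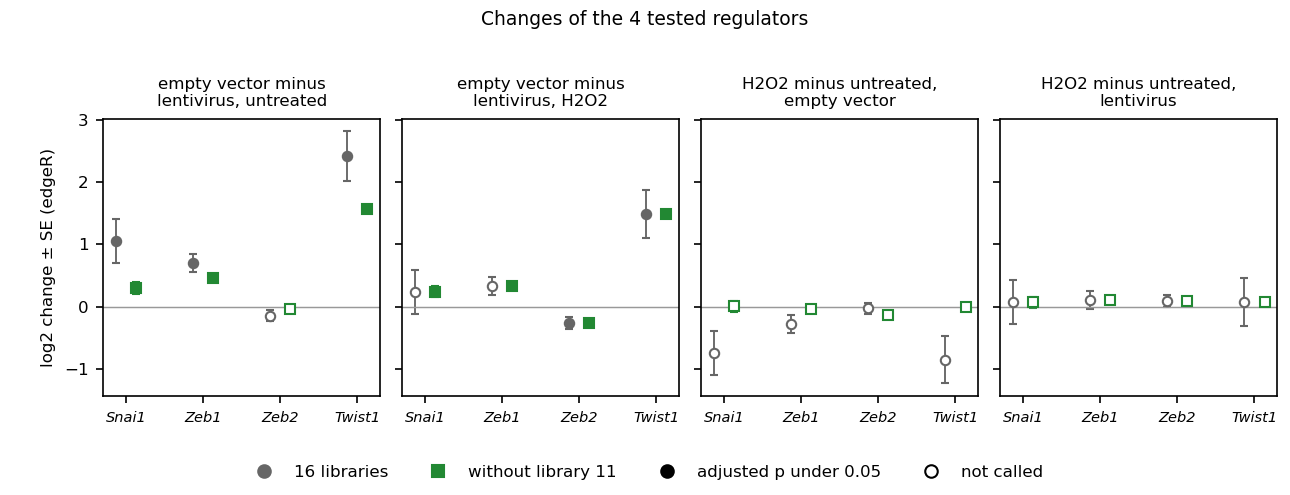
Log2 changes with standard errors of the 4 tested regulators from edgeR, in the comparisons between vectors and between treatments, with 16 libraries (circles) and without library 11 (squares); filled symbols have an adjusted p under 0.05. Twist1 is called in both vector comparisons in both fits, and no regulator is called for H2O2.

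No regulator was called between untreated and H2O2-treated cells. With 16 libraries edgeR called 0 of 14445 genes (0.00%) in empty-vector cells, 0 (0.00%) in lentivirus cells and 0 (0.00%) for the difference of these responses, with 2120, 255 and 859 genes at an unadjusted p under 0.05. Without library 11 it called 35 genes (0.240%), 0 (0.00%) and 28 (0.192%), with 1994, 2135 and 2391 at an unadjusted p under 0.05, and none was a regulator. DESeq2, limma voom and every other alternative called 0 regulators too. In empty-vector cells the log2 changes were -0.74 for Snai1, -0.27 for Zeb1, -0.03 for Zeb2 and -0.85 for Twist1 with 16 libraries (edgeR adjusted p from 0.339 to 0.845), Twist1 having an unadjusted p of 0.0413. Without library 11 they were 0.01, -0.03, -0.13 and -0.00, so the larger values came with that library. Zeb2 was then at 48.5 to 53.0 CPM untreated and 45.5 to 47.2 treated, which do not overlap (edgeR adjusted p = 0.140). In lentivirus cells the changes were 0.07 for Snai1, 0.11 for Zeb1, 0.09 for Zeb2 and 0.07 for Twist1 (edgeR adjusted p = 1 for each). Zeb1 went from 60.9 to 62.8 CPM untreated to 64.9 to 68.9 treated without overlap (edgeR adjusted p = 0.189 without library 11). For the difference of the responses the smallest adjusted p was that of Zeb2 without library 11 (log2 -0.22, standard error 0.0565, edgeR adjusted p = 0.0824).

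The epithelial regulators Esrp2 and Grhl2 were found only in traces, with more counts in empty-vector cells. Esrp2 (chromosome 8, 106130319 to 106136974, minus strand, mm10), which encodes an epithelial splicing regulator, had 73 counts in all. Library by library these were 1, 1, 1 and 0 counts in untreated lentivirus cells and 11, 6, 13 and 5 in untreated empty-vector cells, with every empty-vector library above. After H2O2 the counts were 5, 0, 2 and 0 with the lentivirus and 12, 1, 6 and 9 with the empty vector, which overlap. The ratio of empty vector to lentivirus was 12.2 (exact 95% counting interval 3.84 to 61.8) untreated, 9.39 (2.82 to 49.0) without library 11, and 3.96 (1.69 to 10.7) treated. An edgeR fit with no filter on low counts called the untreated difference (log2 change 3.48, adjusted p = 0.0138; 3.05, adjusted p = 0.00329, without library 11) and, with 16 libraries, not the treated one (1.91, adjusted p = 0.158). Without library 11 the treated difference was called as well (1.91, edgeR adjusted p = 0.0293). Esrp2 overlaps Nfatc3 on the opposite strand, a far more abundant gene with 76994 counts. Nfatc3 was at 83.1 to 85.4 CPM in untreated lentivirus cells and 77.9 to 93.9 in untreated empty-vector cells (log2 0.08, edgeR adjusted p = 0.277; 0.14, adjusted p = 7.56e-04, without library 11), and whether its reads enter the Esrp2 counts was not tested.

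Grhl2 (chromosome 15, 37233036 to 37363569, plus strand, mm10), which encodes the grainyhead-like activator of E-cadherin and claudin genes, had 50 counts in all. It had 1, 1, 2 and 2 counts in untreated lentivirus libraries and 5, 7, 2 and 3 in untreated empty-vector libraries, which overlap at 2 because of library 11; the other 3 were all above the lentivirus libraries. After H2O2 it had 1, 0, 0 and 1 against 10, 7, 3 and 5 counts, which do not. The ratio was 2.96 (exact 95% counting interval 1.11 to 9.15) untreated, 3.20 (1.17 to 10.1) without library 11, and 12.4 (3.09 to 108) treated. Without the filter edgeR called the treated difference (log2 change 3.36, adjusted p = 0.00266; 3.35, adjusted p = 8.86e-04, without library 11) and not the untreated one (1.43, adjusted p = 0.120; 1.59, adjusted p = 0.102). Neither gene passed 0.337 CPM in any library. The intervals cover counting error only.

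Esrp1, Ovol1, Snai2 and Twist2 were at or near 0. Esrp1 (chromosome 4, 11331933 to 11386783, minus strand, mm10), the paralogue of Esrp2, had 1 count, in lentivirus library 8 after H2O2. Ovol1 (chromosome 19, 5549136 to 5560646, minus strand, mm10) had 7 counts, of which 4 were in library 11 and 1 each in libraries 4, 13 and 15. It overlaps Gm31166 on the other strand, which had 285 counts in all. Snai2 (chromosome 16, 14705852 to 14709385, plus strand, mm10), which encodes Slug, a repressor known from basal mammary cells, had 1 count in library 5 and 1 in library 13. Twist2 (chromosome 1, 91801461 to 91848028, plus strand, mm10), the paralogue of Twist1, had 1 count in libraries 14 and 16 each. In the untreated groups Snai2, Twist2 and Esrp1 all had 0 counts, which allows levels of up to 0.0138 CPM with the lentivirus and 0.0144 CPM with the empty vector. No fold is given for these genes.

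Outside library 11, transcripts of 2 epithelial adhesion genes on which these regulators are known to act, Cdh1 and Epcam, were near 0 with both vectors, while vimentin and simple-epithelial keratins were abundant. Cdh1, which encodes E-cadherin, had 0 to 7 counts in every library except library 11, with 59 counts. Epcam, an epithelial adhesion molecule, had 0 to 2 counts except in library 11, with 500. Vim, which encodes the mesenchymal filament vimentin, was at 2556 to 2604 CPM in untreated lentivirus cells and 2688 to 3745 in untreated empty-vector cells (log2 0.41, edgeR adjusted p = 0.00147; 0.51, adjusted p = 1.71e-10, without library 11). Cdh2, which encodes N-cadherin, had at most 3 counts outside library 11 and 5 in it. Krt18 was at 84.9 to 93.4 CPM in untreated lentivirus cells and 173, 187, 384 and 198 CPM in libraries 9 to 12 (log2 change 1.40, edgeR adjusted p = 3.24e-05; 1.06, adjusted p = 7.58e-14, without library 11). Krt8 was at 403 to 448 CPM against 610, 632, 371 and 599 CPM (log2 change 0.39, edgeR adjusted p = 0.0181; 0.54 without library 11), with library 11 the lowest of all 16. Of the defining markers of mammary epithelium, the keratins were thus present in all libraries, and Epcam and Cdh1 at more than traces in library 11 alone.

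In TMM-scaled CPM library 11 thus carried the highest Twist1, Snai1 and Zeb1 levels together with the highest Epcam (13.0 CPM), Cdh1 (1.53 CPM) and Krt18 of the 16, and the lowest Zeb2, Krt8 and, within its group, Vim. Bulk RNA does not show whether these transcripts come from the same cells, and the part of library 11's other differences in these values was not tested.

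**Figure D4:**
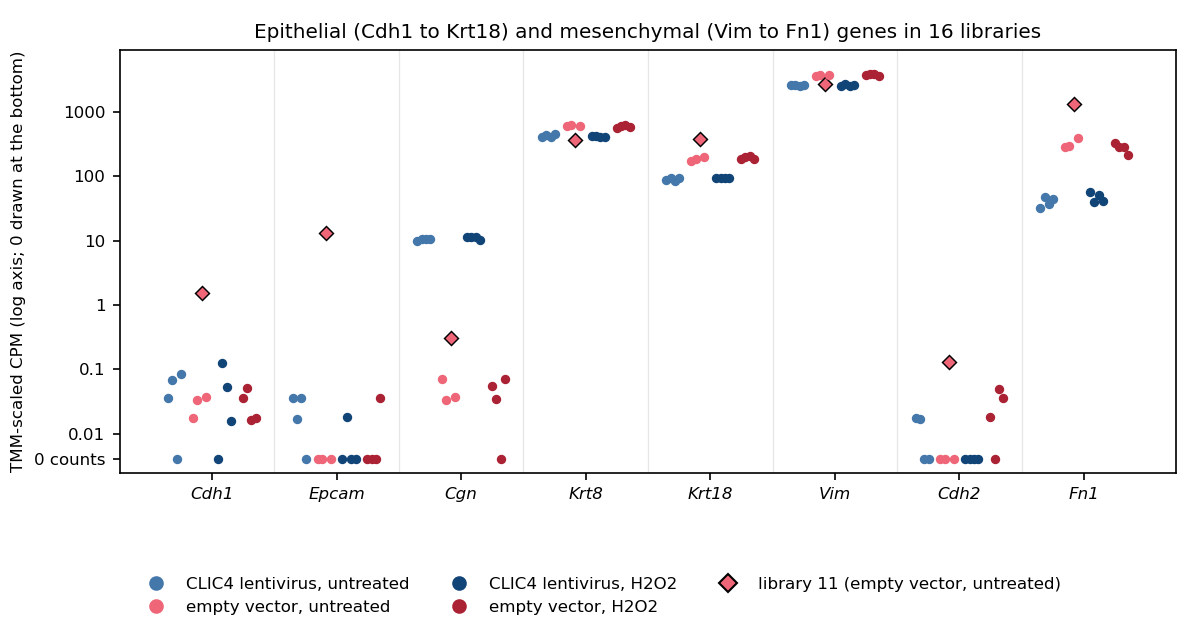
TMM-scaled CPM on a log axis of 5 epithelial genes and 3 mesenchymal genes, 1 point per library and groups by colour, with libraries at 0 counts drawn at the bottom and library 11 as a diamond. Cdh1 and Epcam exceed 1 CPM in library 11 alone, Cgn is near 10 CPM only with the lentivirus, and Fn1 is higher in every empty-vector library than in any lentivirus library.

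Genes of the epithelial and mesenchymal states were called in both directions between the vectors, as were genes of the whole table. Over all tested genes 29.0% were higher and 24.3% lower in untreated cells (37.0% and 37.3% without library 11), and 22.1% and 20.0% in treated cells (36.6% and 37.2%). Of 30 epithelial genes 28 have a row and 17 were tested with 16 libraries. With the empty vector 7 were higher, 4 lower and 6 not called in untreated cells, with a median log2 change of 0.13; without library 11 they were 10, 7 and 2 of 19, with a median of 0.25. Cgn, which encodes the tight-junction protein cingulin, showed the widest contrast downward, from 10.4 ± 0.293 CPM with the lentivirus to 0.113 ± 0.133 with the empty vector (SD, n = 4; log2 change -6.67, edgeR adjusted p = 4.26e-08; -7.72 without library 11). Spint2, which encodes an inhibitor of epithelial surface proteases, had 3 counts in untreated lentivirus cells and 344 with the empty vector, a ratio of 120 (exact 95% counting interval 40.6 to 583). Pkp3, the desmosomal plakophilin 3, rose from 18.9 to 27.4 CPM (log2 change 0.54, edgeR adjusted p = 4.36e-04; 0.64 without library 11). In treated cells 6 epithelial genes were higher, 6 lower and 5 not called (9, 8 and 2 without library 11).

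Of 28 mesenchymal genes 17 were tested, and in untreated cells 9 were higher with the empty vector, 3 lower and 5 not called, with a median log2 change of 0.47 (9, 3 and 5, median 0.51, without library 11). Fn1, which encodes fibronectin, was at 32.2, 48.2, 36.5 and 44.5 CPM in libraries 1 to 4 and 288, 298, 1321 and 387 CPM in libraries 9 to 12 (log2 change 3.83, standard error 0.442, edgeR adjusted p = 6.41e-06; 3.01, adjusted p = 2.69e-08, without library 11). Its receptor subunit Itga5 (log2 change 1.65; 1.19 without library 11), the hyaluronan receptor Cd44 (1.36; 1.28) and the growth factor receptor Pdgfra (1.89; 1.90) were higher as well. In treated cells 8 were higher, 3 lower and 6 not called (9, 5 and 3 without library 11). Col1a1, Tnc and Mmp2, named here because they were the 3 lower genes of untreated cells without library 11, fell by 1.63, 3.93 and 0.64 on the log2 scale.

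**Figure D5:**
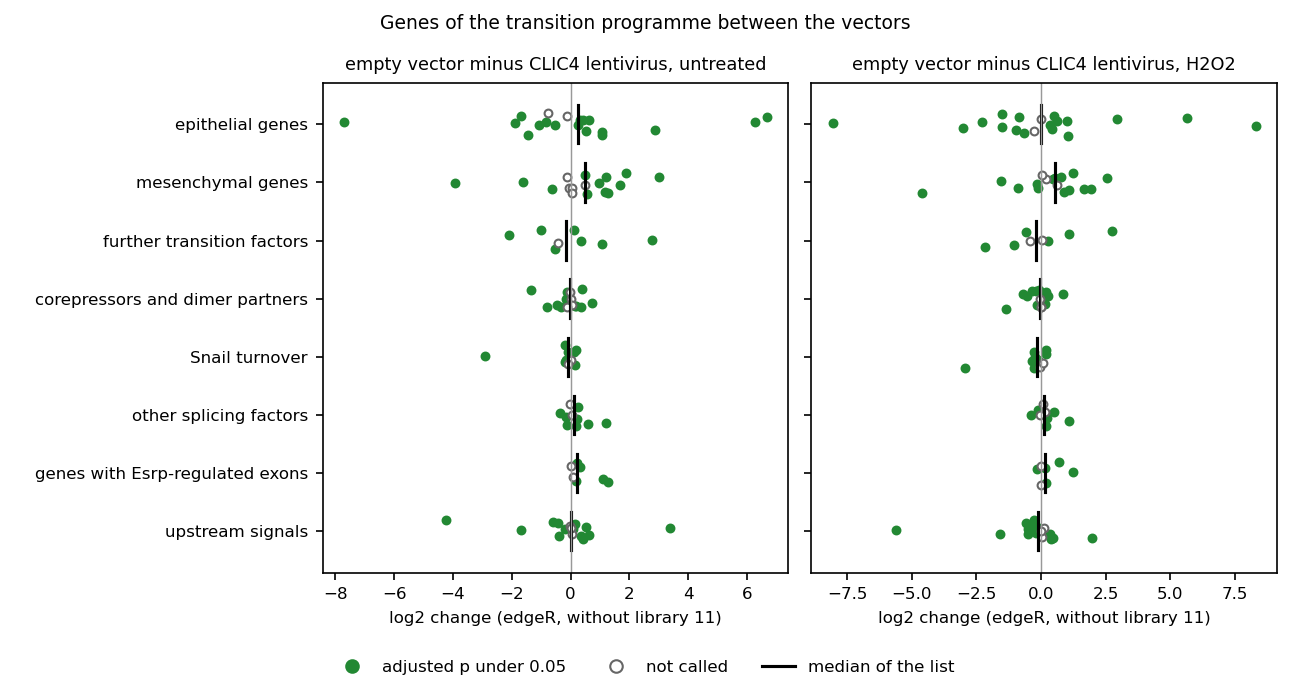
Log2 changes of empty vector minus lentivirus for the tested genes of 8 gene lists, untreated on the left and treated on the right, from edgeR without library 11; filled points have an adjusted p under 0.05 and the black bar is the median of a list. Epithelial genes spread from -7.72 to 6.69 in untreated cells, and the median of the mesenchymal genes lies at 0.51.

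Among 20 further transcription factors of the transition, 15 have a row and 8 were tested. In untreated cells 3 were higher with the empty vector, 1 lower and 4 not called (4, 3 and 1 without library 11). In treated cells the counts were 2, 2 and 4 (3, 3 and 2). Over all tested genes 29.0% were higher and 24.3% lower untreated, and 22.1% and 20.0% treated. Without library 11 these shares were 37.0% and 37.3%, and 36.6% and 37.2%. Elf3, an epithelial ETS factor, was at 0.780 CPM on average with the lentivirus and 15.0 with the empty vector (log2 change 4.26; 2.76 without library 11). Sox4, a factor known as an inducer of Ezh2 in the transition, fell from 21.8 to 6.14 CPM (log2 change -1.83, edgeR adjusted p = 4.36e-07; -2.09 without library 11). Foxc2, a forkhead factor of mesenchymal cells, rose by 1.31 (1.08 without library 11) to 1.42 CPM. Klf4, an epithelial zinc-finger factor, had a log2 change of 2.26 with library 11 (edgeR adjusted p = 0.0128) and 0.37 without it (adjusted p = 0.00212), so that library sets its size.

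The 15 tested corepressors and dimer partners, Id genes included, held 4 higher, 2 lower and 9 not called genes in untreated cells (5, 6 and 4 without library 11) and 3, 3 and 9 in treated ones (5, 7 and 3). Ajuba, a LIM protein that bridges Snail to its partners, fell from 48.9 to 17.5 CPM (log2 change -1.49, edgeR adjusted p = 3.25e-07; -1.33 without library 11). Ezh2, the methyltransferase of Polycomb, rose by 0.55 (edgeR adjusted p = 0.00937; 0.74 without library 11), Sin3a by 0.31 (0.37) and the demethylase Kdm1a by 0.16 (0.18). For this list and the next, the shares over all tested genes were 29.0% higher and 24.3% lower untreated, and 22.1% and 20.0% treated. Without library 11 they were 37.0% and 37.3%, and 36.6% and 37.2%. Of 10 genes of Snail protein turnover, 1 was higher and 0 lower in untreated cells (3 and 5 without library 11), and 1 and 4 in treated ones (2 and 6). The 1 higher gene was Pak1, a kinase that phosphorylates Snail, whose log2 change of 1.29 became 0.19 without library 11 (edgeR adjusted p = 0.0273 and 5.43e-05). Fbxl14 and Fbxo11, which encode ubiquitin ligase subunits that act on Snail, and the kinase Lats2 had log2 changes of 0.12, -0.10 and -0.41 with 16 libraries, none of them called (edgeR adjusted p = 0.0976, 0.102 and 0.0620). Without library 11 all 3 were called, at 0.13, -0.10 and -0.20. Prkd1, a kinase also known to phosphorylate Snail and named here after its values were seen, was at 24.5 to 25.4 CPM in untreated lentivirus cells, 60.7 CPM in library 11 and 3.31 CPM at the median of its group (log2 change -2.92 without library 11).

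On the splicing side, 10 factors other than the Esrp genes were tested, of which 4 were higher, 2 lower and 4 not called in untreated cells (5, 3 and 2 without library 11) and 1, 1 and 8 in treated ones (5, 2 and 3). Rbm47, an RNA-binding protein of epithelial cells, rose by 1.02 (edgeR adjusted p = 5.67e-04; 1.22 without library 11) to 10.0 CPM. Mbnl1 fell by 0.50 and Mbnl2, its relative, rose by 1.13 (-0.35 and 0.59 without library 11), and Ptbp1 rose by 0.48 (0.26). Of 7 tested genes with exons that Esrp proteins regulate, 5 were higher and 0 lower in untreated cells with and without library 11, and 2 and 1 in treated ones (4 and 1). Of all tested genes 29.0% were higher and 24.3% lower untreated, and 22.1% and 20.0% treated. Without library 11 the shares were 37.0% and 37.3%, and 36.6% and 37.2%. Nothing particular to these 7 genes or to the 10 splicing factors is read from their counts. Magi1, a scaffold of cell junctions, rose by 0.38 (0.21 without library 11), and Scrib, a polarity scaffold, by 0.79 (0.31). These are levels of whole genes, and the tables hold no exon values.

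Of 16 tested upstream signals, 7 were higher, 4 lower and 5 not called in untreated cells (7, 6 and 3 without library 11), and 3, 4 and 9 in treated ones (4, 9 and 3). Over all tested genes 29.0% were higher and 24.3% lower untreated, and 22.1% and 20.0% treated. The shares over all genes without library 11 were 37.0% higher and 37.3% lower untreated and 36.6% and 37.2% treated. The receptor Tgfbr1 fell from 43.3 to 31.8 CPM (log2 change -0.45, edgeR adjusted p = 2.47e-05; -0.44 without library 11), and the ligand Tgfb2 from 6.46 to 2.70 CPM (-1.27, adjusted p = 3.57e-04; -1.68). Bmp4, a ligand of the same superfamily, had 105 counts with the lentivirus and 6 with the empty vector, a ratio of 0.0596 (exact 95% counting interval 0.0214 to 0.134). Bmp7 went the other way, with 4 and 68 counts, a ratio of 17.7 (6.62 to 66.9) that was 11.5 without library 11.

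Markers of other cell types also differed between the vectors. Luminal markers summed to 491 to 544 CPM in untreated lentivirus and 768 to 820 in untreated empty-vector libraries, mostly Krt8 and Krt18, with Kit at 3 or fewer counts in every group and Esr1 lower with the empty vector (log2 change -3.31; -3.16 without library 11). Myoepithelial markers summed to 9.35 to 12.6 CPM against 12.6 to 33.9, mostly Mylk (log2 change 2.09; 2.36 without library 11). Trp63, the other tested one, went the opposite way (-3.42; -4.61), and Krt5 and Krt14 had 4 and 7 counts in all. Fibroblast markers summed to 13.6 to 14.9 CPM against 18.5 to 20.9, where the 1 tested gene that rose was Pdgfra. The other 3 of the 4 tested were lower with the empty vector, Col1a1 by a log2 change of -1.35 (-1.63 without library 11), Dcn by -4.20 (-4.11) and Lum by -6.74 (-6.77), and the median of the 4 was -2.77 (-2.87). Lum had 108 counts in all and at most 0.316 CPM in any library, so the size of its change rests on levels near 0. Sums ran for immune markers from 77.6 to 82.9 against 223 to 385 (252 without library 11), and for endothelial markers from 80.0 to 85.2 against 5.21 to 9.38. Cd68 held most of the immune sums, and Cdh5 most of the endothelial sums of lentivirus libraries. Tie1 went against the endothelial sum, with a log2 change of 5.07, or 5.08 without library 11. Of the immune list 2 genes were tested, Cd68 and Itgam, and each was higher with the empty vector in untreated cells. Over all tested genes 29.0% were higher and 24.3% lower there (37.0% and 37.3% without library 11). Itgam, at 0 to 5.07 CPM over the 16 libraries, passed the filter through its empty-vector levels, so its direction is no independent result. Their median log2 change was 3.70 (3.78 without library 11), while Cd68 itself changed by 1.54 without library 11. Csf1r, which was not tested, had 570 counts in all, most of them in library 11, where it reached 14.5 CPM. The pan-leukocyte gene Ptprc had 12 counts and Adgre1 1. Treated cells had close values, such as 80.9 to 92.6 against 228 to 258 CPM for the immune list. The part of these markers in the changes of the 4 regulators was not tested.

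Over the 15 libraries other than 11, the genes of most similar pattern were looked up among 9984 candidates by the root mean square difference of centred log2 CPM. For Twist1 they were Nectin1, a cell adhesion molecule, at 0.0598, and Cd68, a lysosomal glycoprotein, at 0.0648, where Twist1 itself had an SD of 0.787. For Zeb1 they were Chst11 (0.0364) and Copb2 (0.0376), with an SD of 0.210 for Zeb1. For Zeb2, with an SD of 0.110, they were Exoc6b (0.0415) and Usp32 (0.0422), and for Snai1, with an SD of 0.188, Vwa1 (0.0953) and Txlnb (0.0997). The libraries of a vector share their cells, so these likenesses describe the table mainly through the contrast of the vectors.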

How the data were processed

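RNA of cultured cells was extracted with a Qiagen kit, per the labels' protocols. Cutadapt, STAR, RSEM and the build mm10 are named, without versions, in the submitters' processing notes; strandedness was not given in the sources used. The authors deposited whole-number gene counts for 25745 genes, possibly rounded from RSEM estimates, and FPKM values, which the authors divided by gene length and depth, for 25372 genes. On the counts, edgeR 4.0.16 (R 4.3.3) fitted 1 coefficient per group to 16 libraries by robust quasi-likelihood, after TMM scaling and filterByExpr. Benjamini-Hochberg adjusted p-values over 14445 tested genes were called under 0.05. Standard errors are the absolute log2 change over the root of F. Levels are TMM-scaled CPM. The fit was repeated without library 11 (14602 genes). No 2 libraries of a group agreed within sampling noise (lowest chi-square per degree of freedom 5.05).

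Members and gene lists were chosen with earlier results of these data known. Named genes are all members, up to 4 genes of each pathway list with the smallest adjusted p in untreated cells, 8 fixed state genes and the 2 genes of nearest pattern for each tested member (mean log2 CPM at or above 2); 1 gene that this rule names is not reported here. List genes without a row in the count table were not analysed here. Ratios of sparse genes have exact 95% counting intervals, and a count of 0 allows up to 3 counts. Positions are from GENCODE vM21 (mm10), and promoters from RefSeq (GRCm38.p6). Alternatives were RLE factors, DESeq2 1.42.0, filters of none or 10 CPM in 4 libraries, the compared groups alone, limma 3.58.1 on log2(FPKM + 1), filtered at 0.5 FPKM in 4 libraries or not, and on log2(FPKM + 0.1), limma voom with quality weights, and leaving out each library. Pseudocounts shrink the changes of low genes. The tests were checked on simulated counts. Figures used matplotlib 3.10.9.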

Additional observations from a re-analysis of the deposited data

Results flagged for a closer look

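The TMM-scaled CPM values of 45 genes, the regulators and the list genes named by the rule above, were examined in each group of 4 libraries. Left out were 30 groups with 3 or fewer counts in every library, and other genes of the text, such as Prkd1. The measure was the gap between the extreme library and its nearest neighbour, divided by the range of the group. A share above the 95% critical value of Dixon counts as far from the others, which chance alone gives in about 1 in 20 groups. Of 150 groups looked at 26 passed it, 23 of them because of library 11 in untreated empty-vector cells. Among the regulators library 11 stood apart for Twist1 (share 0.977), Zeb1 (0.936), Snai1 (0.926) and Ovol1 (1, where it held the only counts of its group). In FPKM, Zeb1 of library 11 (19.7) lay within the 18.5 to 20.0 of libraries 9, 10 and 12. Among epithelial genes it did so for Epcam (1), Cdh1 (0.987), Krt18 (0.88), Krt8 (0.873, as the lowest) and Cgn (0.867), and among mesenchymal genes for Cdh2 (1, from 5 counts), Itga5 (0.978) and Fn1 (0.904).

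Library 11 stood apart in the same way for the factors Elf3 (0.984), Klf4 (0.979) and Sox4 (0.85), for Pak1 (0.983) and Lats2 (0.909), and for Tgfb2 (0.897). It did so for the splicing factors Mbnl2 (0.95), Ptbp1 (0.906) and Mbnl1 (0.851), and for Scrib (0.966) and Magi1 (0.86), whose exons Esrp proteins regulate. The other 3 were Tgfbr1 in library 1 of untreated lentivirus cells (0.882), Cgn in library 8 of treated lentivirus cells (0.868) and Pak1 in library 13 of treated empty-vector cells (0.856). The voom quality weight of library 11 was 0.00767, where the other 15 ran from 0.614 to 2.12.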

How the results depend on the processing

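No result changed direction while called. In untreated cells 3 regulators differed between the vectors, and 2 to 4 did so over 25 alternatives, some of which also tested a regulator under the filter. In treated cells the 2 regulators called became 4 with the compared groups alone and 4 with limma voom and quality weights, and 1 to 4 when each library was left out, with 4 without library 11 and 1 without library 1, 4, 6, 7, 8, 13, 15 or 16. Of the 4 regulators that passed the main filter, Twist1 alone was called without library 5 or 14 as well. Twist1 kept its call in both vector comparisons in all 25 alternatives (log2 change 1.57 to 2.62 untreated and 1.34 to 1.53 treated), and Zeb1 did so in untreated cells (0.43 to 0.79). The treated difference of Zeb1 gained its call in 6 of 25, with the groups alone, with voom, in the 3 fits on FPKM and without library 11. The treated fall of Zeb2 lost its call in 14 of 25, namely with 1 of 10 libraries left out, with no filter (adjusted p = 0.154) and in the 3 fits on FPKM, and the untreated rise of Snai1 in 4 of 24, among them the groups alone (adjusted p = 0.125) and unfiltered FPKM (0.0702). The treated difference of Snai1 gained its call in 3. The cause was not tested. Without library 11 the smaller spread of the fit goes with more calls. That fit called 74.4% of all tested genes untreated (10858) and 73.8% treated (10779). With 16 libraries the shares were 53.3% (7700) and 42.1% (6079). Shares over all genes in the other alternatives are not given here, so the counts of regulators there describe these genes alone. The filtered FPKM fits moved the median of all genes by 0.11 to 0.142 in H2O2 minus untreated of empty-vector cells. No paired analysis was possible because no library number is shared by 2 groups. Depth limits the 6 regulators of 73 or fewer counts, for which a fold is known only within its counting interval.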
